A study of Mus musculus with 6 samples.

Results

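Collagen and laminin genes were measured in whole testes of male mice on postnatal day 9, in 3 Dmrt1 KO samples and 3 control samples. The genes were chosen by name: every row whose RefSeq accession led to a mouse symbol made of Col, a number, a and a number, or of Lam, one of the letters a, b or c, and a number. Of 55 such symbols in the annotation, 47 had a row, 38 of them collagens and 9 laminins, among 17277 named genes on the arrays. Lama3, Lama5, Col6a3, Col6a4, Col6a5, Col12a1, Col20a1 and Col22a1 had no matched row and were not analysed here. The members were divided into 15 basement membrane chains (type IV collagens and laminins), 11 fibrillar collagens and 21 other collagens.

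The Dmrt1 KO samples were Cre-positive and the control samples Cre-negative, and both carry the genotype label NGN-cre. Sertoli cells and male germ cells make the DMRT1 protein, which binds DNA and controls other genes. The sources used here do not say in which cells this Cre is active or whether each sample came from its own animal, so p-values measure the spread between these samples only. Because only the Dmrt1 KO samples carry Cre, what Cre does by itself and what targeting Dmrt1 does cannot be told apart. Each sample was hybridised to 1 NimbleGen long-oligonucleotide array, and values are log2 of the deposited intensity, listed below for replicates 1, 2 and 3 in that order.

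Collagens are proteins wound from 3 chains. Fibrillar collagens assemble into the tensile fibres of connective tissue, whereas type IV collagen forms a sheet-like network that, with laminin, makes up the basement membrane. A laminin molecule joins 1 alpha, 1 beta and 1 gamma chain. In the testis a basement membrane surrounds each seminiferous tubule. It is laid down jointly by Sertoli cells, which rest on its inner face beside the spermatogonia, and by the peritubular myoid cells outside, while the fibrils lie in the tubule wall and the interstitium.

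The genes for the type IV chains lie in pairs, head to head, and the Col4a5 and Col4a6 genes of 1 such pair both had lower means in the Dmrt1 KO arrays. Their promoter stretches are shown together with those of Col27a1, the member with the smallest p, and Col28a1, the 1 member whose window holds the core of the motif bound by the mouse DMRT1 protein. Each line gives the 200 bases before an annotated start, 5′ to 3′ on the gene's strand, from RefSeq on build GRCm38.p6. Capitals mark matches, on either strand, to the letters of a CCAAT box (CCAAT), of a GC box (GGGCGG), of a TATA box (TATAAA) and of the DMRT core (ACANTGT). The members of these 4 stretches are described with their values further on.
Col27a1 (chr4:63215212-63215411, plus strand): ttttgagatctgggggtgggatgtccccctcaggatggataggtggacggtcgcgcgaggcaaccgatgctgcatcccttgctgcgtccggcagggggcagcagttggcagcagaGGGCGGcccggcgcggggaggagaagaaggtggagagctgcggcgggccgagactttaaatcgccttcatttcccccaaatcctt
Col4a5 (chrX:141475219-141475418, plus strand): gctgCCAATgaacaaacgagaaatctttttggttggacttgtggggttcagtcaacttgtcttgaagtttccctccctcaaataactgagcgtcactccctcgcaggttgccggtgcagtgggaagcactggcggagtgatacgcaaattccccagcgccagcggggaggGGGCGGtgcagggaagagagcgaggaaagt
Col4a6 (chrX:141474077-141474276, minus strand): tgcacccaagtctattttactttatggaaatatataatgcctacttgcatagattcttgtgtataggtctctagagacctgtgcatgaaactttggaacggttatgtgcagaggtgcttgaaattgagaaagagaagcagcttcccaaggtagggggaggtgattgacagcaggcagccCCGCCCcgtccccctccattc
Col28a1 (chr6:8192618-8192817, minus strand): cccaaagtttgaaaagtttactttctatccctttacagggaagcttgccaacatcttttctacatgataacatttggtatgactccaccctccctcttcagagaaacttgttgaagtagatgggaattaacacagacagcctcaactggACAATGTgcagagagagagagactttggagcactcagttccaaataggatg

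Promoter windows of 250 bases before to 50 bases after an annotated start were found for 35 of 46 genes looked up, in 39 windows. The DMRT core ACANTGT, which reads the same on both strands, occurred in 1 member window (2.56%), at base -51 of Col28a1, and in 7.54% of all 32851 windows. The GC box GGGCGG occurred in 23 of 39 member windows (59.0%) and in 35.7% of all windows. CCAAT was found in 13 member windows (33.3%, against 37.4% of all) and TATAAA in 5 (12.8%, against 13.6%), among them that of the fibrillar collagen gene Col3a1. These are matches of letters only. No window was found for Lamc3, Lama4, Col9a3, Col26a1, Col14a1, Col2a1, Col1a1, Col5a2, Lamc1, Lama1 or Col4a3.

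Before the members, the arrays themselves were examined. Dmrt1 had log2 intensities of 11.98, 12.08 and 12.27 in the Dmrt1 KO arrays, against 13.59, 13.49 and 13.21 in the control arrays, without overlap. Its log2 fold change was -1.32 ± 0.20 (limma adjusted p = 0.124), and whether its probes lie in the deleted stretch is not known here. The arrays had median intensities between 498.1 and 543.8. Across rows, Pearson's r with any other array reached at most 0.973 for Dmrt1 KO replicate 3, while no other pair was below 0.978. All 9 measured Sertoli cell markers, 7 Leydig cell markers and 7 germ cell markers lay above a background guide in every array, the guide being 7.19, the 95th percentile of the mean log2 intensity of 1064 olfactory receptor rows. By their means over the 6 arrays, 39 of the 47 members lay above that guide.

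The comparison asks whether genes of the extracellular matrix differ between testes with targeted Dmrt1 and control testes at this age. No collagen or laminin gene passed an adjusted p of 0.05 in either direction (limma, Benjamini-Hochberg over 25631 rows), where 0.0312% of all rows passed. Adjusted p-values of the 47 members ran from 0.497 for Col27a1 to 0.999 for Col4a3 and Col25a1. At an unadjusted p of 0.05, 1 member was higher in the Dmrt1 KO arrays (2.13% of 47), against 4.41% of all rows, and 0 were lower, against 5.1% of all rows.

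Differences were small in both directions. The log2 fold change lay above 0 for 26 members and below 0 for 21, with a median of 0.04, beside a median of -0.02 over all rows. The typical size of a difference, the median of its absolute value, was 0.18 on the log2 scale for the members and 0.22 for all rows. Among all rows with a mean above the background guide it was 0.19, and it was 0.18 for the 39 members there. The extremes were Col10a1 at -0.62 and Col27a1 at 0.74, a 1.68-fold difference. The mean of Col10a1 lay under the background guide, and among the 39 members above it the lowest value was -0.50, for Lamc3.

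**Figure D1:**
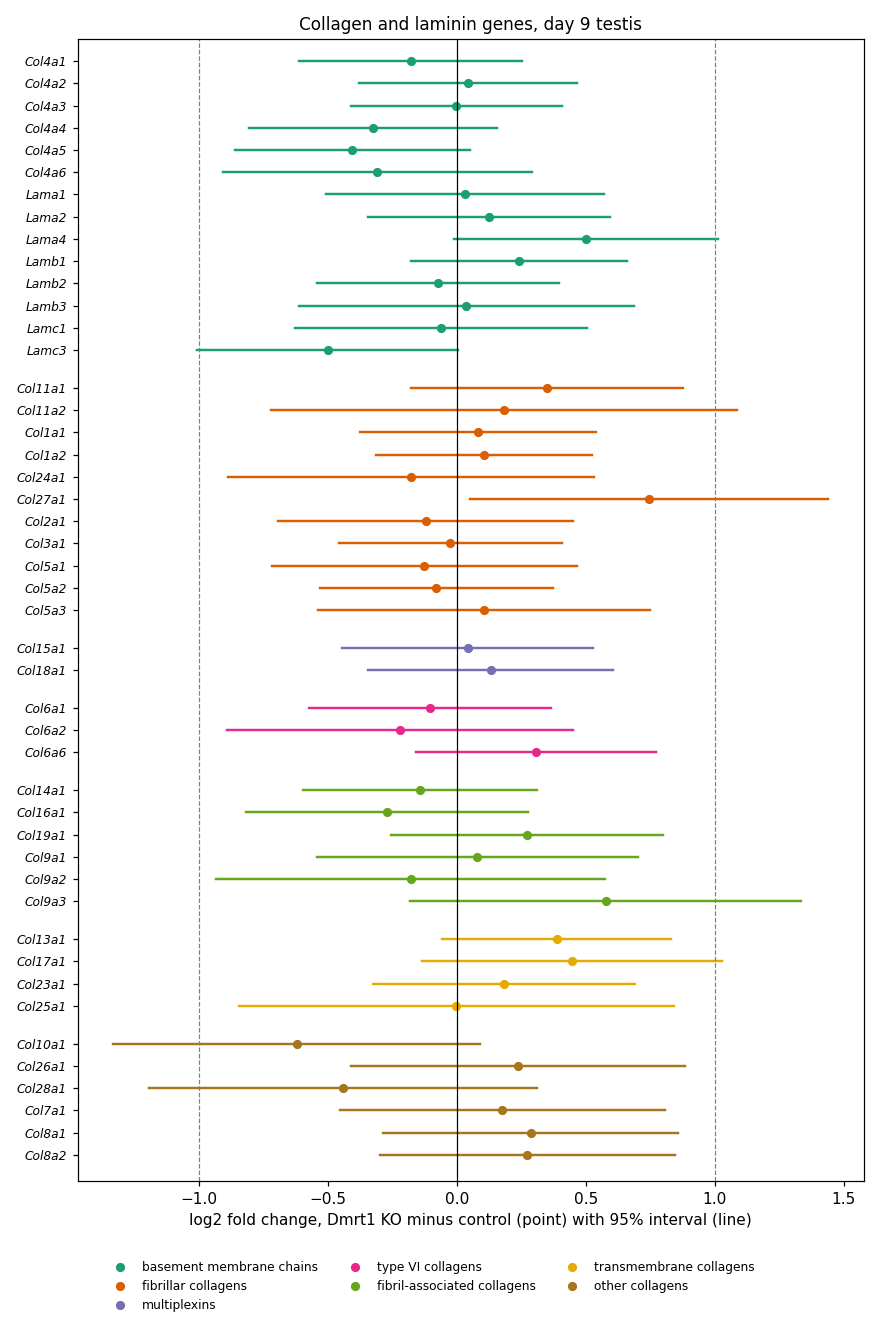
Log2 fold change of 46 of the 47 collagen and laminin genes (horizontal axis, Dmrt1 KO minus control, 3 arrays each), with limma's 95% interval as a line and colours for the 7 lists. Dashed lines mark 2-fold, and 38 of the intervals lie wholly between them. The Col27a1 interval alone excludes 0.

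The intervals say how large a difference these arrays leave possible for each gene. For 38 of the 47 members the 95% interval of the difference lay within 2-fold either way, against 65.3% of all rows. For 10 members it lay within 1.5-fold, against 14.2% of all rows. Rows of low signal enter these shares of all rows. Of all rows with a mean above the background guide, 75.5% lay within 2-fold and 19.7% within 1.5-fold. Of the 39 members above it, 82.1% and 25.6% did. The interval reached past 2-fold for 9 members, among them Col27a1, Lamc3, Lama4, Col10a1, Col17a1, Col9a3, Col28a1 and Col11a2, so a 2-fold difference was not excluded for these at this number of arrays.

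The groups did not overlap for 8 members. All Dmrt1 KO arrays lay above all control arrays for Col27a1, Lama4, Col13a1, Col6a6 and Lamb1 (5 of 47, 10.6%, against 6.8% of all rows). They lay below for Lamc3, Col4a5 and Col4a4 (3 of 47, 6.38%, against 8.54% of all rows). Dmrt1 KO replicate 3, the array least like the others, held the highest or lowest value of 23 members (48.9%), and of 49.2% of all rows. Control replicate 3 was the lowest array for 15 members and the highest for 3, counts that were not made over all rows.

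Type IV collagen has 6 chains. Col4a1 and Col4a2 encode the chains found in nearly every basement membrane. Col4a1 had log2 intensities of 14.37, 14.65 and 14.53 in the Dmrt1 KO arrays, against 14.65, 14.68 and 14.75 in the control arrays. Its values overlapped in Dmrt1 KO replicate 2 only, which reached control replicate 1, and the log2 fold change was -0.18 ± 0.19 (SE, n = 3 arrays per group). Col4a2 had 13.94, 13.82 and 13.90 in the Dmrt1 KO arrays, against 13.95, 13.76 and 13.82 in the control arrays. Its log2 fold change of 0.04 ± 0.18 was smaller than its error.

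Col4a3, Col4a4 and Col4a5 encode the chains of a more restricted network, known best from the kidney glomerulus, where their loss causes Alport syndrome. Col4a3 had 14.13, 14.09 and 14.08 in the Dmrt1 KO arrays, against 14.06, 14.09 and 14.15 in the control arrays. These were the most tightly placed values among the members, with an SD of 0.03 in the Dmrt1 KO arrays and 0.05 in the control arrays, and a log2 fold change of -0.0019 with a 95% interval of -0.41 to 0.41. Col4a4 had 10.75, 11.02 and 11.28 in the Dmrt1 KO arrays, against 11.42, 11.28 and 11.32 in the control arrays, and Dmrt1 KO replicate 3 nearly reached the lowest control. Its log2 fold change was -0.32 ± 0.21 (limma adjusted p = 0.683), and -0.19 without Dmrt1 KO replicate 1.

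Col4a5 (accession NM_007736) had log2 intensities of 11.16, 11.15 and 10.92 in the Dmrt1 KO arrays, against 11.68, 11.41 and 11.36 in the control arrays. Every Dmrt1 KO array was below every control array, and the difference of -0.41 ± 0.20 was 1.32-fold (limma adjusted p = 0.572, and 0.438 to 0.887 over the alternatives). It was -0.52 between the 2 arrays of array number group 1 and -0.23 within group 2, these groups being the arrays whose numbers in the sample titles begin alike. Col4a6, the partner of Col4a5 in basement membranes of smooth muscle and epithelium, had 10.43, 10.38 and 9.93 in the Dmrt1 KO arrays, against 10.79, 10.76 and 10.12 in the control arrays. Control replicate 3 lay below Dmrt1 KO replicates 1 and 2, so the groups overlapped, and the log2 fold change of Col4a6 was -0.31 ± 0.26.

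Of the 6 type IV chains, 5 had a log2 fold change below 0 and 1 above, with a median of -0.24, where 48.0% of all rows lay above 0. None passed the test or an unadjusted p of 0.05, and Col4a3 lay above 0 with quantile normalization or array medians subtracted. All 6 intervals lay within 2-fold. By array, the median of the chains relative to their own means over the 6 arrays was -0.05, -0.03 and -0.05 in the Dmrt1 KO arrays, against 0.16, 0.09 and 0.07 in the control arrays. The same quantity over all rows was 0.02, 0.0042 and -0.04 in the Dmrt1 KO arrays and 0.01 in each control array. The Dmrt1 KO arrays all lay below the control arrays in this median, which is a description over 6 genes that are not independent of each other.

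**Figure D2:**
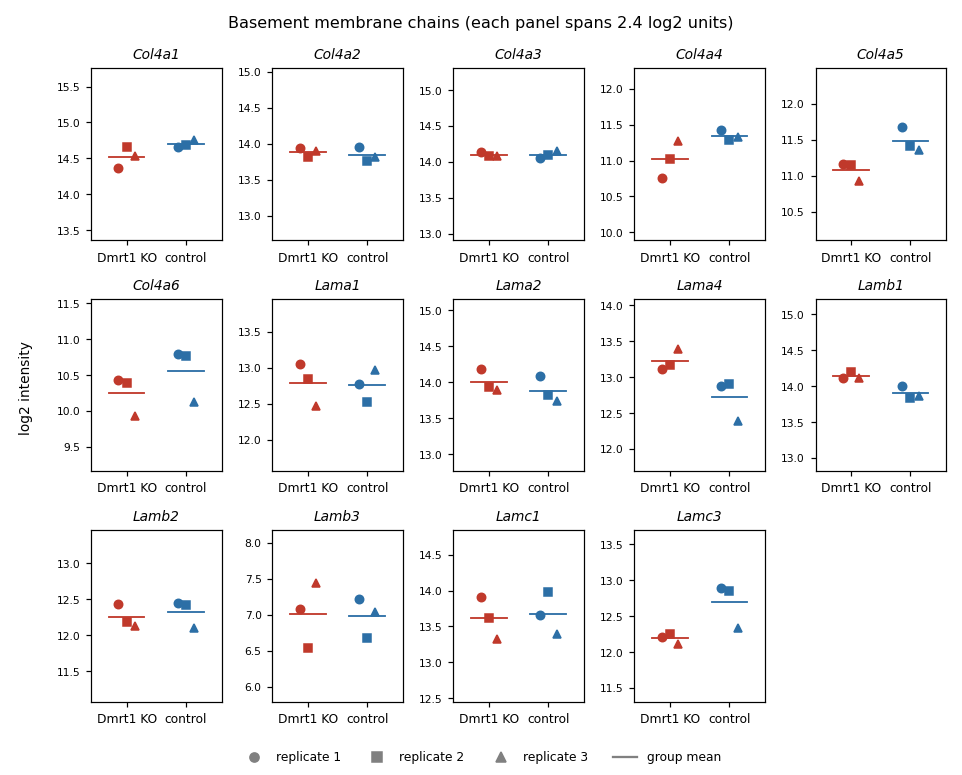
Log2 intensity (vertical axes) of 14 of the 15 measured basement membrane chains in 3 Dmrt1 KO and 3 control arrays, with 1 panel for each gene, all drawn over the same height of log2 units, marker shapes for replicates and lines for group means. The groups are separate for Col4a4, Col4a5, Lama4, Lamb1 and Lamc3, and Col4a3 values lie almost on 1 line.

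Alpha chains give each laminin its receptor binding end, and 3 of them were measured. Lama1 encodes the alpha chain of early embryonic basement membranes, which persists in a few adult tissues including the testis. Its log2 intensities were 13.06, 12.85 and 12.47 in the Dmrt1 KO arrays, against 12.78, 12.53 and 12.97 in the control arrays, overlapping fully, with a log2 fold change of 0.03 ± 0.23 and an interval of -0.51 to 0.57. Lama2, the merosin chain of muscle basement membranes, had 14.19, 13.93 and 13.89 in the Dmrt1 KO arrays, against 14.09, 13.82 and 13.73 in the control arrays and a log2 fold change of 0.12 ± 0.20.

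Lama4 (NM_010681) encodes the laminin alpha chain of blood vessels, made by endothelial cells. It had 13.12, 13.16 and 13.39 in the Dmrt1 KO arrays, against 12.87, 12.91 and 12.39 in the control arrays. All Dmrt1 KO arrays were higher than all control arrays, with control replicate 3 the lowest, and the log2 fold change was 0.50 ± 0.22 (limma adjusted p = 0.534, 0.349 to 0.787 over the alternatives). Without control replicate 3 it was 0.33, and a block on array number group gave 0.40.

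Endothelial markers are given beside Lama4. Of the 7 measured, 6 had a log2 fold change above 0 and the median was 0.14, with Pecam1, a junction protein of endothelial cells, at 0.62 ± 0.23 (limma adjusted p = 0.454). Their summed linear intensity was 16569 to 18023 in the Dmrt1 KO arrays and 12128 to 15861 in the control arrays, and no marker was below the background guide in any array. The list's median by array overlapped between the groups. The part of these markers in the Lama4 difference was not tested. In RNA of whole testes, a difference in the number of cells of a type and a difference in RNA per cell cannot be told apart.

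Among the beta chains, Lamb1, the most widely used, had 14.11, 14.20 and 14.11 in the Dmrt1 KO arrays, against 14.00, 13.83 and 13.87 in the control arrays. The groups were separate though close, with SDs of 0.05 in the Dmrt1 KO arrays and 0.09 in the control arrays and a log2 fold change of 0.24 ± 0.18 (limma adjusted p = 0.743). The error exceeds these SDs because limma moderates each gene's variance towards that of all rows. Lamb2, the beta chain of synaptic, glomerular and smooth muscle basement membranes, had 12.43, 12.19 and 12.13 in the Dmrt1 KO arrays, against 12.44, 12.43 and 12.10 in the control arrays and a log2 fold change of -0.07 ± 0.20.

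Gamma chains complete the molecule. Lamc1, the gamma chain of most laminins, had 13.91, 13.61 and 13.32 in the Dmrt1 KO arrays, against 13.65, 13.98 and 13.40 in the control arrays. The groups overlapped and the log2 fold change was -0.06 ± 0.25. Lamc3 (NM_011836) encodes a gamma chain that has been described in rat testis at the contacts between Sertoli cells and spermatids. Its values were 12.21, 12.25 and 12.12 in the Dmrt1 KO arrays, against 12.89, 12.85 and 12.34 in the control arrays, with all Dmrt1 KO arrays below all control arrays and control replicate 3 the nearest. The log2 fold change was -0.50 ± 0.22, a 1.42-fold difference (limma adjusted p = 0.529, 0.331 to 0.858 over the alternatives). Within array number groups 1 and 2 it was -0.68 and -0.34.

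Lamb3 belongs to the laminin of epidermal and other stratified epithelia. Its mean lay under the background guide. It had 7.08, 6.54 and 7.44 in the Dmrt1 KO arrays, against 7.22, 6.67 and 7.04 in the control arrays. The groups overlapped, with a log2 fold change of 0.04 ± 0.28 and an interval of -0.61 to 0.68.

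Over the 15 basement membrane chains the log2 fold change was above 0 for 7 and below 0 for 8, with a median of -0.0019, which was 0.0040 with quantile normalization and 0.03 with array medians subtracted. For 12 of them the interval lay within 2-fold. The groups did not overlap for 5 of the 15 (33.3%, against 15.3% of all rows and 16.2% of those with a mean above the background guide). The Dmrt1 KO arrays lay above for 2 of these and below for 3. Without Dmrt1 KO replicate 1 the median was -0.10.

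Fibrillar collagens of the testis wall and interstitium were as close between groups. Col1a1 and Col1a2 encode the chains of type I collagen, the main fibre of connective tissue. Col1a1 had 14.35, 14.30 and 14.62 in the Dmrt1 KO arrays, against 14.29, 14.50 and 14.24 in the control arrays, and Col1a2 had 15.93, 15.80 and 15.78 in the Dmrt1 KO arrays, against 15.67, 15.72 and 15.80 in the control arrays. The groups overlapped for both, with log2 fold changes of 0.08 ± 0.20 and 0.11 ± 0.18. Col3a1, the chain of reticular fibres, had 15.21, 15.41 and 15.12 in the Dmrt1 KO arrays, against 15.31, 15.22 and 15.30 in the control arrays. All 6 values lay close together, the log2 fold change was -0.03 ± 0.19, and its interval of -0.46 to 0.41 lay within 1.5-fold.

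Type V collagen regulates the width of type I fibrils. Col5a1 had 13.83, 13.49 and 13.10 in the Dmrt1 KO arrays, against 13.55, 13.89 and 13.35 in the control arrays, Dmrt1 KO replicate 3 being the lowest, and a log2 fold change of -0.13 ± 0.26. Col5a2 had 8.99, 9.15 and 8.78 in the Dmrt1 KO arrays, against 9.03, 9.15 and 8.98 in the control arrays, overlapping fully, and a log2 fold change of -0.08 ± 0.20. Col5a3 had 10.15, 10.26 and 9.80 in the Dmrt1 KO arrays, against 9.60, 9.81 and 10.49 in the control arrays, with the highest and the lowest value both among controls, and a log2 fold change of 0.10 ± 0.28.

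**Figure D3:**
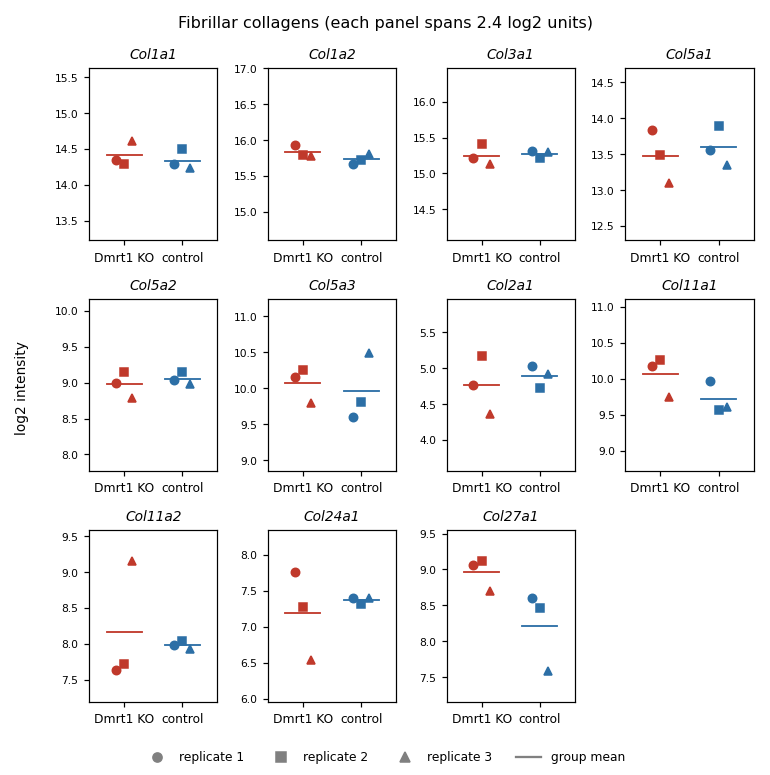
Log2 intensity (vertical axes) of the 11 fibrillar collagen genes in 3 Dmrt1 KO and 3 control arrays, with 1 panel for each gene, all drawn over the same height of log2 units, marker shapes for replicates and lines for group means. The groups overlap in every panel except that of Col27a1, and Dmrt1 KO replicate 3 lies far from the other arrays for Col11a2.

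Col27a1 (NM_025685), a fibrillar collagen known from developing cartilage, was the 1 member past an unadjusted p of 0.05. It had log2 intensities of 9.06, 9.12 and 8.70 in the Dmrt1 KO arrays, against 8.60, 8.46 and 7.59 in the control arrays. All Dmrt1 KO arrays were above all control arrays and control replicate 3 was well below the others. The log2 fold change was 0.74 ± 0.30 (limma unadjusted p = 0.0382, adjusted p = 0.497, and 0.309 to 0.742 over the alternatives). Without control replicate 3 it was 0.43 with an unadjusted limma p of 0.112, and within array number groups 1 and 2 it was 0.46 and 1.10. Of the 13 alternatives that gave a value, 10 had an unadjusted p under 0.05. Besides control replicate 3, leaving out Dmrt1 KO replicate 1 (limma unadjusted p = 0.0861) or Dmrt1 KO replicate 2 (0.105) ended it.

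Chains of cartilage fibrils gave no call either. Col2a1, the main cartilage chain, stayed under the background guide in every array at 4.77, 5.16 and 4.37 in the Dmrt1 KO arrays, against 5.03, 4.72 and 4.91 in the control arrays, with a log2 fold change of -0.12 ± 0.25. Col11a1 had 10.18, 10.26 and 9.75 in the Dmrt1 KO arrays, against 9.97, 9.56 and 9.61 in the control arrays and a log2 fold change of 0.35 ± 0.23, the groups overlapping through Dmrt1 KO replicate 3. Col11a2 had 7.63, 7.73 and 9.15 in the Dmrt1 KO arrays, against 7.99, 8.05 and 7.93 in the control arrays. Its 3 controls were close together and Dmrt1 KO replicate 3 alone was high, so the log2 fold change of 0.18 was -0.31 without that array. Col24a1 had 7.76, 7.27 and 6.54 in the Dmrt1 KO arrays, against 7.40, 7.31 and 7.40 in the control arrays and a log2 fold change of -0.18 ± 0.31.

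Of the 5 chondrocyte markers measured, 2 were above 0 and 3 below, with a median log2 fold change of -0.15. The highest was Acan, the aggrecan of cartilage, at 0.32 ± 0.24. The lowest was Comp at -0.29 ± 0.19, with all Dmrt1 KO arrays below all control arrays. Matn1 was under the background guide in every array. The summed linear intensity of the 5 chondrocyte markers was 2351 to 3370 in the Dmrt1 KO arrays and 2261 to 2595 in the control arrays. Of the 5 fibroblast markers 4 were above 0, with a median of 0.14, and their summed linear intensity was 77948 to 92336 in the Dmrt1 KO arrays and 74172 to 82076 in the control arrays. Relative to the genes' own means, the fibroblast median by array was 0.14, 0.33 and 0.12 in the Dmrt1 KO arrays. In the control arrays it was -0.06, -0.09 and -0.08, so these medians did not overlap between the groups, whereas the sums did. Taken singly, only Thy1 (0.59 ± 0.22) of the 5 fibroblast markers separated the groups (20%, against 15.3% of all rows). The part of these cells in the collagen values was not tested.

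The 11 fibrillar collagens had a median log2 fold change of 0.08, with 6 above 0 and 5 below, beside -0.0019 for the basement membrane chains. By array, the fibrillar median relative to the genes' own means was 0.14, 0.14 and -0.14 in the Dmrt1 KO arrays and 0.02, -0.04 and -0.03 in the control arrays, so the groups overlapped. The basement membrane chains gave 0.08, -0.02 and -0.08 in the Dmrt1 KO arrays and 0.08, -0.01 and -0.04 in the control arrays, which overlapped too. These values are a description, and no test of the difference between the lists was made.

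**Figure D4:**
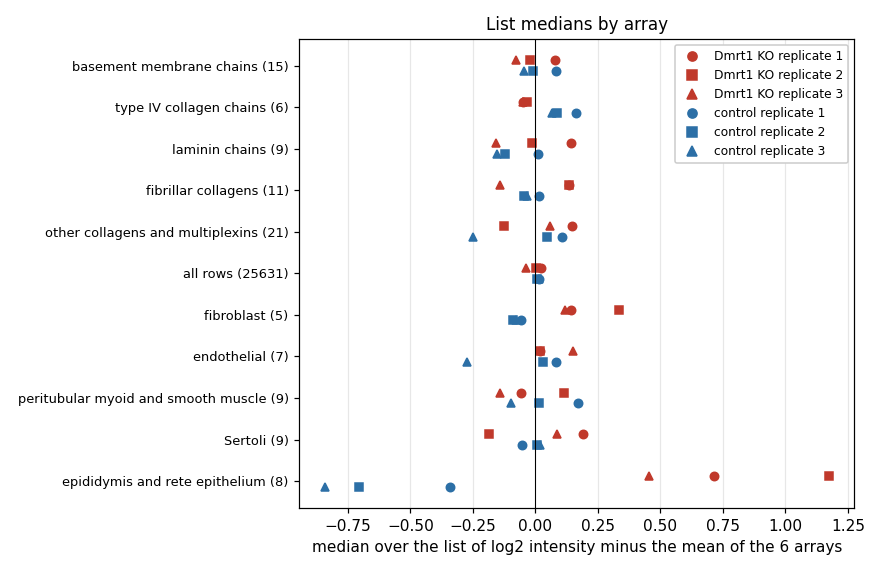
Median over each list of log2 intensity minus the gene's mean over the 6 arrays (horizontal axis), with a point for each of 3 Dmrt1 KO and 3 control arrays and the number of genes or rows in brackets. Points of the basement membrane and fibrillar lists mix around 0. Those of the type IV collagen chains form 2 close groups, those of the fibroblast list are separate too, and those of the epididymis and rete epithelium list lie far apart.

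The 21 other collagens had a median log2 fold change of 0.13, with 13 above 0 and 8 below, and 0 past an unadjusted p of 0.05. Col15a1 and Col18a1 encode the multiplexins, which tie basement membranes to the matrix beneath. Col15a1 had 13.78, 13.67 and 14.21 in the Dmrt1 KO arrays, against 13.84, 13.87 and 13.82 in the control arrays, the controls lying close together, and a log2 fold change of 0.04 ± 0.21. Col18a1, whose cleaved end is endostatin, had 13.14, 13.00 and 12.84 in the Dmrt1 KO arrays, against 13.08, 12.83 and 12.68 in the control arrays and a log2 fold change of 0.13 ± 0.21.

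Type VI collagen forms beaded filaments next to basement membranes. Col6a1 had 14.65, 14.51 and 14.63 in the Dmrt1 KO arrays, against 14.89, 14.78 and 14.44 in the control arrays and a log2 fold change of -0.10 ± 0.20. Col6a2 had 13.78, 13.43 and 13.39 in the Dmrt1 KO arrays, against 13.93, 14.16 and 13.16 in the control arrays and a log2 fold change of -0.22 ± 0.29. The 3 controls of Col6a2 spanned the whole range of the Dmrt1 KO arrays. Col6a6, a later member of this family, had 8.17, 8.02 and 7.96 in the Dmrt1 KO arrays, against 7.76, 7.95 and 7.53 in the control arrays, separate by a small margin, with a log2 fold change of 0.31 ± 0.20, which was 0.20 without control replicate 3.

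Transmembrane collagens are anchored in the cell surface. Col13a1, known from the neuromuscular junction, had 8.94, 8.91 and 9.11 in the Dmrt1 KO arrays, against 8.77, 8.55 and 8.47 in the control arrays, without overlap, and a log2 fold change of 0.39 ± 0.19 (limma adjusted p = 0.585). Col17a1, the hemidesmosome collagen of epithelia, had 11.79, 11.35 and 12.10 in the Dmrt1 KO arrays, against 11.09, 11.54 and 11.28 in the control arrays, and Dmrt1 KO replicate 2 lay among the controls. Its log2 fold change was 0.45 ± 0.25, with 0.70 in array number group 1 and -0.06 in group 2. It was 0.27 without Dmrt1 KO replicate 3 and 0.27 with a block on array number group. Col23a1 gave 0.18 ± 0.22. Dmrt1 KO replicate 3 was the highest array for all 4 measured transmembrane collagens, Col25a1 included, and for 5614 of all 25631 rows. For Col23a1 it was so only narrowly, at 10.92 against 10.90 in Dmrt1 KO replicate 1.

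Beside Col17a1 and the epithelial laminin chain Lamb3, the markers of another epithelium were also examined. All 8 genes of the epididymis and rete epithelium list had a log2 fold change above 0, with a median of 1.09, and their summed linear intensity was 10097 to 17284 in the Dmrt1 KO arrays and 3026 to 5499 in the control arrays. Lcn5 and Lcn8 of that list were under the background guide in every array. All Dmrt1 KO arrays lay above all control arrays for Cdh1 (2.67 ± 0.37), Krt18 (1.79 ± 0.33) and Pax8 (1.14 ± 0.23) only. These were 3 of the 8 (37.5%, against 6.8% of all rows). The groups overlapped for Krt8 and Krt19, and for Crisp1 at 1.61 ± 1.83. By array, the list median was 0.71, 1.17 and 0.45 in the Dmrt1 KO arrays, against -0.34, -0.70 and -0.84 in the control arrays. The part of cells that carry these markers in the values of Col17a1 and Lamb3 was not tested.

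Col25a1, a transmembrane collagen of neurons, was the 1 member with 2 rows. The row with the higher mean gave 6.15, 7.11 and 7.50 in the Dmrt1 KO arrays, against 7.33, 6.66 and 6.77 in the control arrays and a log2 fold change of -0.0033 ± 0.37, and the other gave 0.33 ± 0.48. Both rows were under the background guide by their means, and neither separated the groups.

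Collagens that bind to the surface of fibrils were Col9a1, Col9a2, Col9a3, Col14a1, Col16a1 and Col19a1, with log2 fold changes of 0.08, -0.18, 0.58, -0.14, -0.27 and 0.27. Col9a1 and Col19a1 lay under the background guide in the means of both groups. Col9a3, a type IX chain of cartilage, had 8.33, 8.19 and 7.88 in the Dmrt1 KO arrays, against 7.21, 7.17 and 8.29 in the control arrays. Control replicate 3 reached the Dmrt1 KO values, and the log2 fold change of 0.58 ± 0.33 depended on single controls. It was 0.40 without control replicate 1 (limma unadjusted p = 0.314), 0.38 without control replicate 2 (0.327) and 0.94 without control replicate 3 (0.00584, adjusted p = 0.356). Col14a1, a collagen of tendon and skin, had 11.27, 11.34 and 11.57 in the Dmrt1 KO arrays, against 11.43, 11.70 and 11.49 in the control arrays, and its interval of -0.60 to 0.31 lay within 2-fold.

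Of the 6 remaining collagens Col10a1, the collagen of hypertrophic cartilage, had 7.35, 6.74 and 6.17 in the Dmrt1 KO arrays, against 7.17, 7.53 and 7.43 in the control arrays. Dmrt1 KO replicate 1 lay among the controls and replicate 3 was the lowest, and the log2 fold change was -0.62 ± 0.31, with 0.18 in array number group 1 and -0.74 in group 2. It was -0.33 without Dmrt1 KO replicate 3, -0.92 without Dmrt1 KO replicate 1 (limma unadjusted p = 0.0104) and -0.35 with a block on array number group. Its mean was 6.75 in the Dmrt1 KO arrays, under the background guide, and 7.38 in the control arrays. Col28a1, known from peripheral nerve, had 9.75, 9.87 and 8.99 in the Dmrt1 KO arrays, against 10.46, 9.97 and 9.52 in the control arrays and a log2 fold change of -0.44 ± 0.33. That value was -0.17 without Dmrt1 KO replicate 3, -0.20 without control replicate 1, -0.67 without control replicate 3 and -0.23 with a block on array number group. Col26a1, first described in mouse testis and ovary, had 10.18, 9.72 and 10.53 in the Dmrt1 KO arrays, against 9.51, 10.05 and 10.15 in the control arrays and a log2 fold change of 0.24 ± 0.28, the groups overlapping. Col7a1 of anchoring fibrils and Col8a1 and Col8a2 of vessel walls and the cornea gave 0.18, 0.29 and 0.27, with Col8a1 under the background guide in the means of both groups.

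Members that neighbour each other in the GRCm38.p6 annotation were set side by side. Of the 46 members considered, 6 pairs had less than 200000 bases between them, and in 5 the log2 fold changes had the same sign. The pair of Col4a6 and Col4a5 gave -0.31 and -0.41, that of Col4a4 and Col4a3 gave -0.32 and -0.0019, and that of Col4a1 and Col4a2 gave -0.18 and 0.04. The remaining pairs were Col3a1 with Col5a2, Col9a1 with Col19a1, and Col6a2 with Col6a1. Most of these values were smaller than their errors.

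Among the genes that act with collagens and laminins, the call was the same. Of 50 measured partners and enzymes, 0 passed an adjusted p of 0.05 (limma, over all rows), 2 were higher (4% of 50, against 4.41% of all rows) and 1 lower (2%, against 5.1%) at an unadjusted p of 0.05, and the median log2 fold change was 0.03. Fbln2, a fibulin that binds laminin and nidogen, had 11.90, 11.86 and 11.94 in the Dmrt1 KO arrays, against 11.38, 11.20 and 11.11 in the control arrays, without overlap, and a log2 fold change of 0.67 ± 0.19 (limma adjusted p = 0.319). Ntn4, a netrin that binds laminin gamma chains, had 11.73, 11.05 and 11.46 in the Dmrt1 KO arrays, against 12.12, 12.31 and 11.75 in the control arrays, also without overlap, and a log2 fold change of -0.65 ± 0.25 (limma adjusted p = 0.479). Itga1, the alpha subunit of a collagen receptor, gave -0.68 ± 0.32 without overlap, and -0.35 without Dmrt1 KO replicate 3. Of the 50 partners and enzymes, the groups did not overlap for 6 (12%, against 15.3% of all rows).

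Of 25 collagen modifying and processing genes, 14 were above 0 and 11 below, with a median of 0.03 and log2 fold changes from -0.63 for Pcolce2, overlapping, to 0.45. Loxl3, a lysyl oxidase that crosslinks collagen, gave -0.53 ± 0.28, the Dmrt1 KO arrays lying below the controls throughout, and -0.24 without Dmrt1 KO replicate 3. Bmp1, the protease that cuts the end of procollagen, gave 0.45 ± 0.24, and Pcolce, which enhances that cut, gave 0.38 ± 0.22. P3h1, a prolyl hydroxylase, gave -0.35 ± 0.23, and -0.53 without Dmrt1 KO replicate 1. Mmp13, a collagenase, gave 0.70 ± 0.30 at a signal below the background guide in both groups' means.

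Marker lists of the other testis cells are given as measured beside these values. Leydig and interstitial markers were above 0 in 7 of 7 genes, with a median log2 fold change of 0.33. Their summed linear intensity was 108200 to 123708 in the Dmrt1 KO arrays and 75247 to 96959 in the control arrays, without overlap. The list's median by array did overlap. It was 0.17, -0.03 and 0.27 in the Dmrt1 KO arrays, against -0.16, -0.39 and 0.09 in the control arrays. Germ cell markers were below 0 in 6 of 7 genes, with a median of -0.12 and sums of 107246 to 128196 in the Dmrt1 KO arrays and 121402 to 141558 in the control arrays. They were not uniform, running from -1.63 ± 0.27 for Stra8 to 0.34 ± 0.25 for Zbtb16, with Kit at -0.04 and Mael at -0.0054. Macrophage and leukocyte markers were below 0 in 6 of 6 genes, with a median of -0.44 and sums of 4655 to 6121 in the Dmrt1 KO arrays and 5898 to 8027 in the control arrays, and Ptprc was under the background guide in every array. Peritubular myoid and smooth muscle markers had a median of 0.06 over 9 genes and Sertoli cell markers one of 0.01 over 9 genes. The part of these cells in the collagen and laminin values was not tested.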

How the data were processed

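Per the labels, each sample's testis RNA carried the dye Cy3 and went on its own NimbleGen expression array. Per the submitters' processing notes the authors used RMA, and what they deposited is intensity that was not log-transformed. The sources used here give no RMA version, settings or probe annotation. Log2 was taken of the deposited intensity, with no further normalization.

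Accessions were matched without version numbers to GRCm38.p6 symbols, which named 17780 of 25631 rows (69.4%). The row with the highest mean stood for a gene. The arrays' own build is unknown here, so coordinates come from the RefSeq promoter table only.

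Every row was fitted with limma (version 3.58.1, R version 4.3.3; lmFit and eBayes, 4 residual and 3.96 prior degrees of freedom), with p-values adjusted by Benjamini-Hochberg over all rows, and the fit was tested on simulated data. Errors are moderated SEs. With 3 arrays a group, exact permutation cannot reach below 0.1 two-sided, and it was not used. The number of arrays limits the precision. Lists are described by counts and medians. Samples were grouped by title. Replicate numbers follow accession order and pair no samples. The array number group is the start of the number in each title; Dmrt1 KO replicate 3 is alone in its group, so a block gives it no weight.

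Members, lists and tests were chosen with earlier results of these data known. 1 member is counted in all totals and list medians but its own values are not reported here. Values in every array were given for the other type IV and laminin chains, fibrillar collagens of types I, III and V, the 12 members of smallest p, the 6 of highest mean and genes with disagreeing rows, and 8 partners of smallest p were named; Col2a1, Col11a2, Col24a1, Col18a1, Col15a1, Col6a2, Col14a1 and Col26a1 were added as examples of their lists. Alternatives were quantile normalization, array medians subtracted, the lowest 50% of rows left out, log2(value + 50), eBayes with trend and robust settings, array weights, a block on array number group, mean of rows per gene, and each array left out. Figures used matplotlib version 3.10.9.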

Additional observations from a re-analysis of the deposited data

How the results depend on the processing

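No collagen, laminin, partner or enzyme gene was called by limma at an adjusted p of 0.05 under any of the 14 alternatives, nor at an adjusted p of 0.1 in the main setting. Over all rows 8 were called in the main setting and 0 to 81 under the alternatives, 81 with eBayes trend and robust settings, 47 without Dmrt1 KO replicate 3, 3 without Dmrt1 KO replicate 1, and 0 without any 1 control or Dmrt1 KO replicate 2. At an unadjusted p of 0.05, 1 member was higher and 0 lower in the main setting, 3 and 2 with log2(value + 50), 2 and 1 with array weights or with trend and robust settings, and 1 and 2 after the lowest 50% of rows were dropped, which kept 31 members. Quantile normalization gave 2 and 0, leaving out control replicate 3 gave 1 and 1, and leaving out Dmrt1 KO replicate 1 gave 0 and 1. Shares of all rows at that unadjusted p are given for the main setting only, 4.41% higher and 5.1% lower. The member counts under the alternatives are therefore not set against the whole table. Without each array in turn the median of the basement membrane chains ran from -0.10 to 0.025. Of 740 values of 54 genes under the alternatives, 692 kept the direction of the main value and 48, in 17 genes, did not.

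In the main setting, each gene that changed sign had a value smaller than its error. With array medians subtracted Col25a1 was 0.027, Col3a1 0.0039 and Col4a3 0.029. With quantile normalization Col4a3 was 0.0040. With a block on array number group Col11a2 was -0.30, Col15a1 -0.13, Col1a1 -0.013, Col24a1 0.11, Col2a1 0.086, Col3a1 0.045, Col4a3 0.012, Col5a1 0.041, Col5a2 0.032, Col9a1 -0.0036, Lamb3 -0.25 and Lamc1 0.067. With array weights Col11a2 was -0.12, Col15a1 -0.078, Col2a1 0.051, Col3a1 0.040, Col4a3 0.0083 and Lamb3 -0.18. With log2(value + 50) Col25a1 was 0.015. With the mean of rows per gene Col25a1 was 0.16.

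Without each array in turn, the log2 fold change ran from -0.31 to 0.45 for Col11a2, -0.12 to 0.15 for Col15a1, -0.017 to 0.16 for Col1a1, -0.46 to 0.15 for Col24a1, -0.29 to 0.38 for Col25a1, -0.32 to 0.078 for Col2a1, -0.11 to 0.036 for Col3a1, -0.024 to 0.025 for Col4a3 and -0.30 to 0.059 for Col5a1. It ran from -0.17 to 0.017 for Col5a2, -0.081 to 0.37 for Col5a3, -0.093 to 0.32 for Col7a1, -0.20 to 0.25 for Col9a1, -0.45 to 0.082 for Col9a2, -0.10 to 0.19 for Lama1, -0.17 to 0.28 for Lamb3 and -0.21 to 0.089 for Lamc1. The causes were not tested. No paired analysis was possible because the labels carry no replicate numbers; the block on array number group groups arrays by their titles and pairs no samples.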
